A study of Mus musculus with 4 samples.

Results

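The complement system is a cascade of plasma proteins that tags microbes and dying cells for uptake, and macrophages make several of its parts. C1q, a hexamer of trimers built from A, B and C chains, recognises bound antibody and dying cells in the classical pathway. C2 and factor B are the related proteases that split C3 in the classical and lectin pathways and in the alternative pathway, C3 is the protein on which the pathways converge, and properdin, the product of *Cfp*, stabilises the alternative pathway convertase. C3ar1 and C5ar1 are the receptors through which the cleavage fragments C3a and C5a act on macrophages. The 9 genes *C1qa*, *C1qb*, *C1qc*, *C2*, *C3*, *Cfb*, *Cfp*, *C3ar1* and *C5ar1* were chosen by name and described here among 19938 genes with a single symbol on the arrays. Each of the 9 was represented by 1 probe, and all 9 were above background (detection p under 0.05) on all 4 arrays. *Cfb* carries C2 among its older names in the RefSeq gene table, so the probe annotated C2 was taken as the gene *C2*, as the deposited table writes it.

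Peritoneal macrophages of C57BL/6 mice, cultured phagocytes of the abdominal cavity, had received PBS (2 samples) or LPS at 100 ng/ml (2 samples), the endotoxin in the outer membrane of Gram-negative bacteria, with a labelled treatment time of 6 h in both groups. Each sample was hybridised in 1 colour to its own Mouse OneArray Plus microarray. The labels call the 2 samples of a group biological replicates but name no separate mice or cultures for them. Every p-value rests on the spread between these 2 samples of a group. In limma, the model used below, that spread was drawn towards the spread over all genes. By the methods the wild-type mice were male and 6 to 8 weeks old, and the number of mice behind a sample is not stated.

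The deposited signals had medians of 683 to 1054 and 55.8% to 63.3% of probes were above background, with LPS replicate 1 the dimmest array on both measures. The treatment was visible in *Il6*, *Tnf* and *Il1b*, cytokines induced by LPS, which were higher by 8.32, 5.48 and 6.88 on the log2 scale. All 9 measured macrophage markers were above background on all 4 arrays, and their summed normalized signal was 1374376 and 1129834 on PBS replicates 1 and 2 and 1444327 and 1249066 on LPS replicates 1 and 2. Markers of other cells were also measured. Above background on all 4 arrays were 4 of 8 B cell, 4 of 8 T cell, 1 of 4 NK cell, 3 of 7 neutrophil, 1 of 6 dendritic cell, 3 of 5 mast cell and 2 of 3 eosinophil markers. Of these lists only the T cell list held a gene past the test, *Lck*, a kinase of T cell receptor signalling, which rose at least 11.5-fold from below background on both PBS arrays (adjusted p = 0.00460 from limma). The summed signal of the B cell list was 9028 and 5284 on PBS replicates 1 and 2, a ratio of 1.71, and 7359 and 6061 with LPS. For the macrophage, T cell, NK cell, neutrophil and eosinophil lists PBS replicate 1 was 1.17 to 1.39 times PBS replicate 2. The ratio was 1.07 for 6 markers of large peritoneal macrophages, 1.00 for the mast cell list and 0.788 for the dendritic cell list. The summed signal of 8 mesothelium and fibroblast markers was 181508 and 255957 on the PBS arrays, against 83753 and 289732 on the LPS arrays, lowest on LPS replicate 1. The part of these other cells in the results was not tested. The replicate numbers went with the sex-linked transcripts. *Ddx3y* and *Eif2s3y*, both on the Y chromosome, had normalized signals of 205 and 63.5 in PBS replicate 1 and of 196 and 73.0 in LPS replicate 1, all below background. In PBS replicate 2 these were 10862 and 10607, and in LPS replicate 2 they were 8339 and 7827. *Uty* was likewise above background on the arrays numbered 2 only. *Kdm5d*, a further Y-linked gene, differed less, with normalized signals of 513 and 1738 on PBS replicates 1 and 2 and of 704 and 1166 on LPS replicates 1 and 2. It was above background on all arrays but PBS replicate 1, where it missed the threshold narrowly. *Xist*, an X-linked transcript of female cells, was dim, with a deposited signal below the array's median on all 4 arrays. It passed the detection threshold on the arrays numbered 1 (690 and 700), narrowly on LPS replicate 1. It missed the threshold narrowly on those numbered 2 (503 and 473). For 3 of these 4 Y-linked genes, but not *Kdm5d*, the arrays numbered 1 thus went against the stated sex of the mice, and the difference of each complement gene is also given within each replicate number.

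Values below are log2 signals after quantile normalization, and the groups were compared with limma with Benjamini-Hochberg adjustment over all 19938 genes. The question was whether genes of the complement system differed between LPS and PBS. *Cfb* and *C2*, which encode the 2 related convertase proteases, were higher after LPS, by 37.1-fold and 3.05-fold, and *C3* was 3.32-fold higher without passing the test. The 3 C1q chains and *C3ar1* had lower means after LPS, by 1.43-fold to 1.63-fold, and did not pass. *Cfp* and *C5ar1* overlapped between the groups. In all, 2 of the 9 genes passed an adjusted p under 0.05, against 5.54% of all genes tested. Both were higher with LPS (3.22% of all genes were called higher), and 0 of 9 were called lower (2.32% of all genes). Without adjustment, limma put 3 of the 9 higher and 2 lower at p under 0.05, against 12% and 13.9% of all genes. The methods list Student's t-test among the tests of the study but name no test for the arrays. This t-test, called the methods' t-test here, put 1 higher and 2 lower unadjusted, against 11.4% and 7.29% of all genes. It called 0 of the 9 after adjustment. Both LPS arrays lay above both PBS arrays for 3 of the 9 genes, *C2*, *C3* and *Cfb*, against 32.2% of all genes. They lay below both PBS arrays for 4 of the 9, the C1q chains and *C3ar1*, against 27.5% of all genes. The median log2 fold change was −0.38 over the 9 genes and 0.04 over all genes, but that of the 9 turned to 0.10 with 75th percentile scaling and 0.03 with the second deposited table, where 5 of the 9 were positive. Lower RNA per cell and fewer cells of a type cannot be told apart in these bulk samples.

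**Figure D1:**
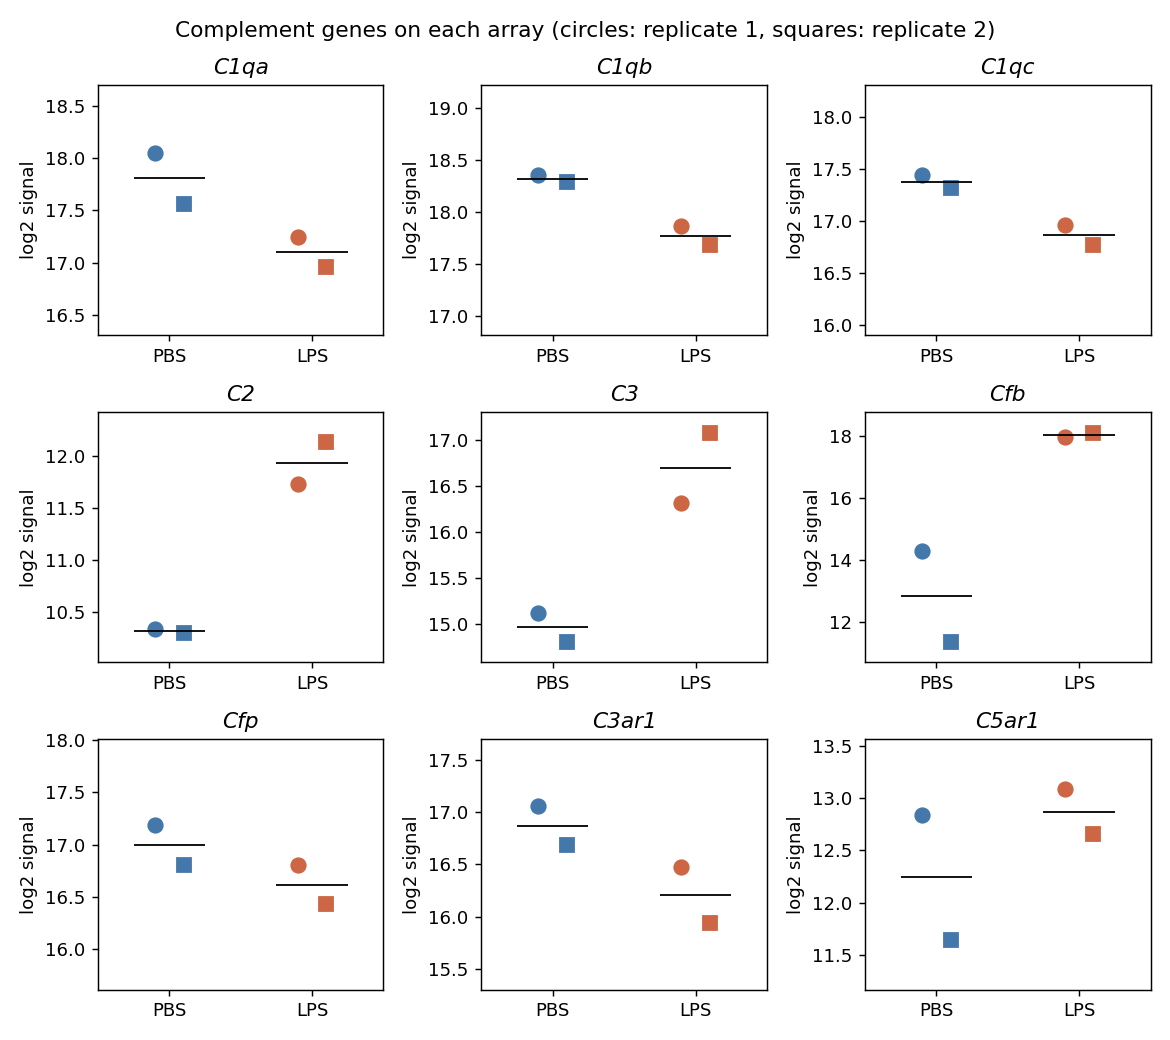
Log2 signal after quantile normalization (vertical axis, a separate range in each panel) of the 9 complement genes on the PBS and LPS arrays, with circles for replicate 1, squares for replicate 2 and bars for the group means. *Cfb* shows the widest gap between the groups and also between the PBS arrays (14.30 and 11.37), whereas *C2* had PBS values of 10.34 and 10.30.

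*Cfb* encodes factor B, the protease of the alternative pathway convertase. Its log2 signal was 14.30 and 11.37 on PBS replicates 1 and 2, and 17.99 and 18.11 on LPS replicates 1 and 2. The LPS arrays thus lay close together and far above both PBS arrays, which were themselves 7.62-fold apart. The log2 fold change was 5.21 (standard error 0.94, 95% interval 2.82 to 7.61, adjusted p = 0.0470 from limma), or 37.1-fold with an interval of 7.04-fold to 195-fold. Within replicate number 1 the change was 3.69 and within replicate number 2 it was 6.74. The size of the rise depended on the PBS array used, at 102-fold without PBS replicate 1 (log2 fold change 6.68) and 13.4-fold without PBS replicate 2 (3.75). A fit with 1 PBS array takes its spread from the LPS pair, so its p-value does not measure the PBS gap and is not given. Of the 18 other fits, 10 lost the call and 8 kept it, the 8 including both fits with 1 PBS array. The call was lost without LPS replicate 1 (log2 fold change 5.27) and without LPS replicate 2 (5.15). A block for the replicate number (adjusted p = 0.0509 from limma) and the second deposited table (0.0858) also lost it. So did 75th percentile scaling (0.0644), cyclic loess (0.0596), fitting every probe separately (0.0555) and a variance trend (0.0526). The methods' t-test did not call *Cfb* before or after adjustment. In all the fits that lost the call the log2 fold change was 5.15 or more. In deposited, unscaled signals, *Cfb* rose from 23672 and 2886 to 265508 and 315514, and its rank among 26423 probes went from 1986 and 8607 with PBS to 63 and 52 with LPS.

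*C2* lies next to *Cfb* on chromosome 17 and encodes the protease of the classical and lectin pathway convertase. The log2 signal of *C2* on PBS replicates 1 and 2 was 10.34 and 10.30, and on LPS replicates 1 and 2 it was 11.73 and 12.13. The PBS arrays were nearly equal and both LPS arrays lay above them. The log2 fold change was 1.61 (standard error 0.24, 95% interval 1.01 to 2.21, adjusted p = 0.0299 from limma), or 3.05-fold, with 1.39 within replicate number 1 and 1.83 within replicate number 2. The adjusted p was 0.0546 to 0.184 without any one array, 0.0612 with 75th percentile scaling, 0.0834 with the second deposited table and 0.191 without scaling, so the call was lost in these fits although the log2 fold change stayed between 1.28 and 1.81 in them.

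*C3* encodes the central component, whose fragment C3b coats targets for uptake. *C3* gave log2 signals of 15.12 and 14.81 on the PBS arrays, against 16.31 and 17.08 on the LPS arrays (replicates 1 and 2). Both LPS arrays lay above both PBS arrays, and LPS replicate 2 was the highest of the 4. The log2 fold change of 1.73 (standard error 0.33, 95% interval 0.90 to 2.56) did not pass (adjusted p = 0.0521 from limma). It was 1.19 within replicate number 1 and 2.27 within replicate number 2. In 4 of the other adjusted fits that leave the arrays quantile-normalized the adjusted p fell just below the threshold, the lowest being 0.0385 with a filter on dim probes, and with 75th percentile scaling it was 0.0490 (log2 fold change 2.08). Leaving out any one array gave log2 fold changes of 1.35 to 2.11 and adjusted p of 0.0550 to 0.259.

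RefSeq promoter windows of build GRCm38.p6, 300 bases around the annotated start site, were given for 6 of the 9 genes; *C1qa*, *C2* and *Cfb* had none. They were searched on both strands for the kappa B motif, the interferon-stimulated response element, the STAT motif TTCNNNGAA, the ETS motif GAGGAA and the TATA motif TATAAA. The window of *C3*, shown because *C3* had the largest rise among the 6, held a TATA match, written in capitals. The match lay on the gene's own strand, downstream of the annotated start site, at positions 15 to 20. Of all 32851 windows, 13.6% held this motif.
C3, chr17:57228087-57228386, minus strand: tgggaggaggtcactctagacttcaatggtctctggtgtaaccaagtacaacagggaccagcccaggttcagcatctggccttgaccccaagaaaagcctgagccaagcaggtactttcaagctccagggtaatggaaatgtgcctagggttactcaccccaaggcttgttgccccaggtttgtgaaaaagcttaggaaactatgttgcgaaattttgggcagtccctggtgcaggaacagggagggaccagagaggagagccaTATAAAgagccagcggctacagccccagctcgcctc

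The C1q chains come from 3 neighbouring genes on chromosome 4, in the order *C1qb*, *C1qc*, *C1qa*, and were among the brightest probes of the arrays. The probe of *C1qb* ranked 36 and 41 of 26423 with PBS and 78 and 95 with LPS. *C1qa* had log2 signals of 18.05 and 17.56 with PBS and 17.25 and 16.95 with LPS. *C1qb* had 18.35 and 18.28 with PBS and 17.86 and 17.68 with LPS. *C1qc* had 17.44 and 17.31 with PBS and 16.96 and 16.77 with LPS. In each chain both LPS arrays were below both PBS arrays. The log2 fold change was −0.70 for *C1qa* (95% interval −1.39 to −0.02, adjusted p = 0.184 from limma), −0.55 for *C1qb* (−1.08 to −0.02, adjusted p = 0.184) and −0.51 for *C1qc* (−1.05 to 0.03, adjusted p = 0.210). Within replicate numbers 1 and 2 the differences were −0.80 and −0.61 for *C1qa*, −0.49 and −0.60 for *C1qb* and −0.48 and −0.54 for *C1qc*. The profiles of *C1qb* and *C1qc*, centred on their means, were 0.06 log2 units apart over the 4 arrays, the smallest distance among the 9 genes, while *C1qa* was 0.34 and 0.33 from them.

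The promoter windows of *C1qb* and *C1qc*, shown because their profiles were the closest pair, each held the ETS motif, the core bound by PU.1 in macrophages. It lay at positions −30 to −25 in *C1qb* and, on the opposite strand, at −193 to −188 in *C1qc*, and 28.3% of all windows held it. *C1qc* also had a kappa B match at −41 to −32, found in 4.51% of all windows and in no other of the 6. Capitals mark these matches, and the motifs do not overlap. The interferon-stimulated response element (3.44% of all windows) and the STAT motif (8.3%) had no match in the 6 windows, *Cfp* had 2 ETS matches, *C3ar1* 1 TATA match and *C5ar1* no match to any of the 5 motifs.
C1qb, chr4:136886151-136886450, minus strand: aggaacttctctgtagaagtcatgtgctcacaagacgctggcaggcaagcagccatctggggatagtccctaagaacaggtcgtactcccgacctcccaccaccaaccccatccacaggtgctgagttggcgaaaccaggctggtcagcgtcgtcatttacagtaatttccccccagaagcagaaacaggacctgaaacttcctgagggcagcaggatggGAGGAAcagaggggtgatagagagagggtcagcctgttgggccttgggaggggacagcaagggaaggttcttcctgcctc
C1qc, chr4:136892865-136893164, minus strand: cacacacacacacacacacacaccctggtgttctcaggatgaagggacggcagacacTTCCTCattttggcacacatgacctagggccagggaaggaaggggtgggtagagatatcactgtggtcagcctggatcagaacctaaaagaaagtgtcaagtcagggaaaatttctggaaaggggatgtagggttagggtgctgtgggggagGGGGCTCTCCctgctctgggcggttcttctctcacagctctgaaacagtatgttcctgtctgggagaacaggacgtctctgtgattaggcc

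*Cfp* encodes properdin and is X-linked. PBS replicates 1 and 2 gave log2 signals of 17.19 and 16.80, and LPS replicates 1 and 2 gave 16.80 and 16.43. The groups met at 16.80. The log2 fold change was −0.38 (95% interval −1.05 to 0.28, adjusted p = 0.398 from limma), with −0.39 and −0.37 within replicate numbers 1 and 2. Its direction turned under other scalings, with 0.10 after 75th percentile scaling and 0.03 in the second deposited table.

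The fitted changes of the anaphylatoxin receptors had opposite signs, and neither passed. *C3ar1*, the C3a receptor, had log2 signals of 17.06 and 16.68 with PBS and 16.47 and 15.94 with LPS, both LPS arrays being lower. Its log2 fold change of −0.66 (95% interval −1.39 to 0.06) did not pass (adjusted p = 0.222 from limma). *C5ar1*, the C5a receptor, had 12.84 and 11.65 with PBS and 13.09 and 12.65 with LPS, and PBS replicate 1 lay above LPS replicate 2. Its log2 fold change of 0.63 (95% interval −0.50 to 1.76, adjusted p = 0.410 from limma) did not pass and rested on the PBS arrays, at 1.22 without PBS replicate 1 and 0.03 without PBS replicate 2. The difference between the changes of the receptors was not tested.

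**Figure D2:**
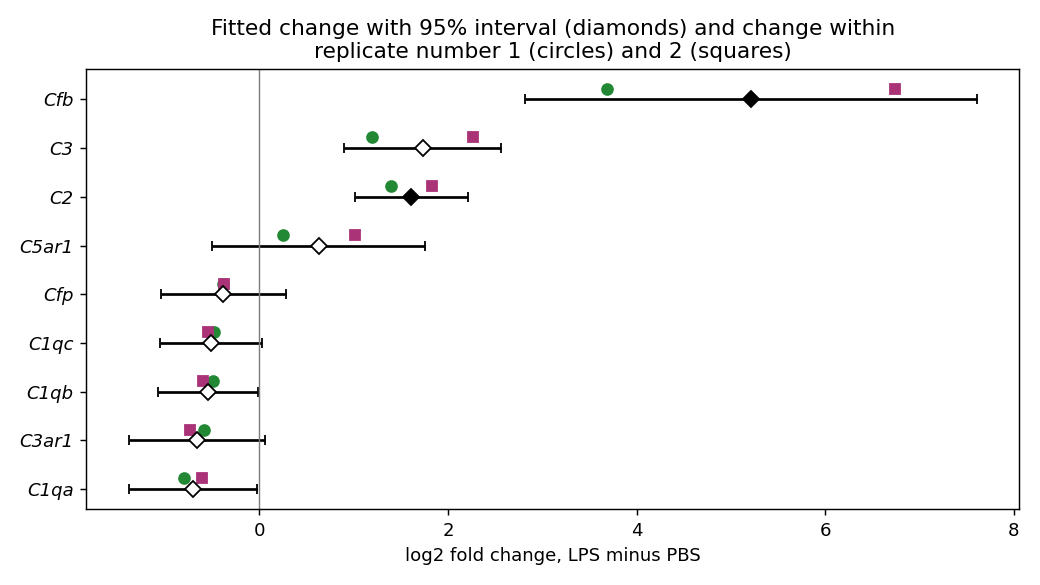
Log2 fold change of LPS against PBS (horizontal axis) for the 9 genes: diamonds are fitted values with 95% intervals, filled where the adjusted p is under 0.05, circles are changes within replicate number 1 and squares within number 2. *Cfb* spans 3.69 to 6.74 between the numbers, and the C1q chains and *C3ar1* lie left of 0 in both.

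The PBS arrays were not alike for these genes. All 9 genes were higher on PBS replicate 1 than on PBS replicate 2, compared with 52.5% of all genes. The share was 73.3% of the 45 other complement genes described below. It was 58% of the 138 genes whose mean signal was at or above that of *C1qc*. The median difference without regard to sign was 0.37 on the log2 scale, against 0.35 for the other complement genes and 0.23 over all genes. The gap was 2.93 for *Cfb* and 1.19 for *C5ar1*, and 0.0903% and 2.87% of all genes had a larger one. For the other 7 genes it was 0.03 to 0.49. *Tnf*, *Il1b* and *Ccl5*, all induced by LPS, were also higher on PBS replicate 1, by 0.37, 0.51 and 0.89, whereas *Il6* was lower by 1.05 and below background there. With LPS, 6 of the 9 were higher on replicate 1, compared with 59.9% of all genes, and *C2*, *C3* and *Cfb*, the genes with the largest rises, were the 3 that were not. What set the PBS arrays apart was not tested.

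**Figure D3:**
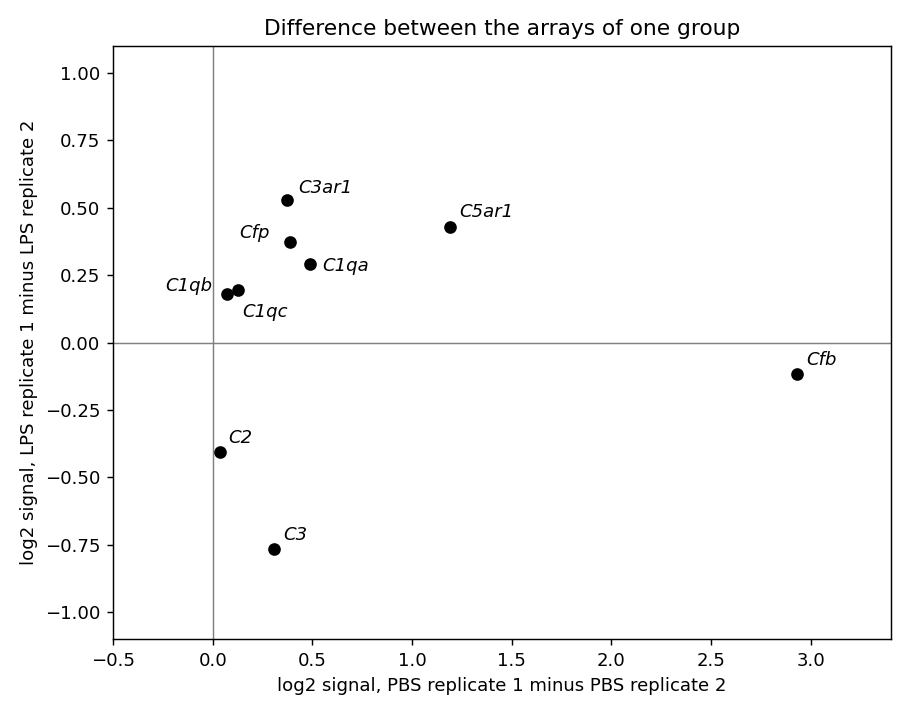
Difference in log2 signal between the arrays of a group for each of the 9 genes, PBS replicate 1 minus 2 (horizontal axis) against LPS replicate 1 minus 2 (vertical axis). All 9 points lie right of 0; *Cfb* stands at 2.93 with PBS but at −0.12 with LPS.

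The lower values of the C1q chains, *C3ar1* and *Cfp* moved with the scaling between arrays. Quantile normalization gave a median log2 fold change of −0.21 over the 138 genes whose mean signal was at or above that of *C1qc*, the dimmest C1q chain, and 101 of these 138 were negative. With 75th percentile scaling the same genes had a median of 0.27, and *C1qa*, *C1qb* and *C1qc* had −0.23, −0.01 and −0.04. Cyclic loess gave a median of 0.06 for these genes and −0.42, −0.23 and −0.21 for the chains, with −0.35 for *C3ar1*. In each of the 6 settings the chains lay below the median of the bright genes. Below *C1qa* lay 24 or 25 of the 138 genes, and below *C1qb* and below *C1qc* 35 to 39. No scaling, 75th percentile scaling and the second deposited table differ only by a factor for each array, so they could not change this order. Quantile normalization gave equal counts with and without a further background correction, so the settings are not 6 separate checks of it. By contrast, *C2*, *C3* and *Cfb* had log2 fold changes of at least 1.28, 1.73 and 5.13 in every one of these settings.

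**Figure D4:**
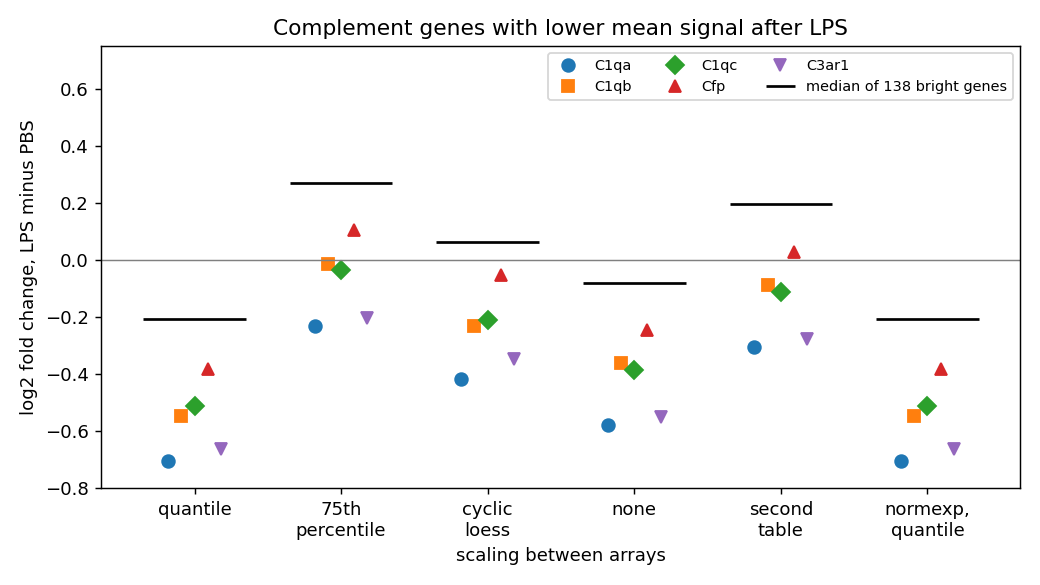
Log2 fold change of LPS against PBS (vertical axis) of *C1qa*, *C1qb*, *C1qc*, *Cfp* and *C3ar1* under 6 ways of treating the arrays (horizontal axis), with a bar for the median of 138 equally bright or brighter genes. The bar moves from −0.21 with quantile normalization to 0.27 with 75th percentile scaling and the genes move with it, *Cfp* crossing 0.

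Of 52 other complement genes listed by role, 45 were measured by a probe with a single symbol, and 13 of these were above background on no array. The remaining 7 were not analysed here. Of the 45, 0 were higher and 1 was lower at an adjusted p under 0.05 from limma, which is 2.22% against the 5.54% of all genes. Without adjustment limma put 2 of the 45 higher and 5 lower, against 12% and 13.9% of all genes, and the methods' t-test called 5 unadjusted and 0 after adjustment. Their median log2 fold change was −0.08. The gene called was *C5ar2*, the neighbour of *C5ar1* on chromosome 7, which encodes a further C5a receptor. It had log2 signals of 11.16 and 10.57 on the PBS arrays and of 8.82 and 8.01 on the LPS arrays, where it was below background on both arrays. The fall was at least 3.25-fold, the PBS mean set against the lowest signal above background on each LPS array or the probe's own, whichever was higher (fitted log2 fold change −2.46, adjusted p = 0.0317 from limma). Without any one array the adjusted p of *C5ar2* was 0.0513 to 0.159.

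Among the regulators, 0 of 16 passed. *Serping1*, which encodes the inhibitor of the C1 proteases, had log2 signals of 11.07 and 10.98 with PBS and 12.72 and 14.20 with LPS, all above background. Both LPS arrays were higher but differed from each other, and the log2 fold change of 2.43 (95% interval 1.15 to 3.72) did not pass (adjusted p = 0.0628 from limma). It was 3.17 without LPS replicate 1 and 1.70 without LPS replicate 2. A fit with 1 LPS array takes its spread from the PBS pair, so its p-value does not measure the LPS gap and is not given. *Cd55*, a membrane inhibitor of the convertases, had a log2 fold change of −0.83 and *Cr1l*, the rodent membrane regulator Crry, −0.04. Among 11 receptors and C1q-binding proteins, *C5ar2* was the only one called. *Cd93* had −1.09 (adjusted p = 0.109), and the complement receptor 3 chains *Itgam* and *Itgb2* had −0.16 and −0.79. *Vsig4*, the complement receptor of resident macrophages, had −0.29. The LPS arrays were 1.18 apart for *Itgb2*, with replicate 1 the lower, and 1.31 apart for *Vsig4*, with replicate 1 the higher. Of 10 initiation genes, 0 passed, and *Mbl1*, a mannose-binding lectin, had the lowest value at −2.05 (adjusted p = 0.124 from limma). Its LPS arrays were far apart, at log2 signals of 10.62 and 12.46, against 13.63 and 13.55 with PBS. *Hc*, which encodes C5, was dim but above background on all 4 arrays, at 9.74 and 9.39 with PBS and 9.87 and 9.56 with LPS (log2 fold change 0.15, adjusted p = 0.726), and 0 of 6 terminal pathway genes passed.

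**Figure D5:**
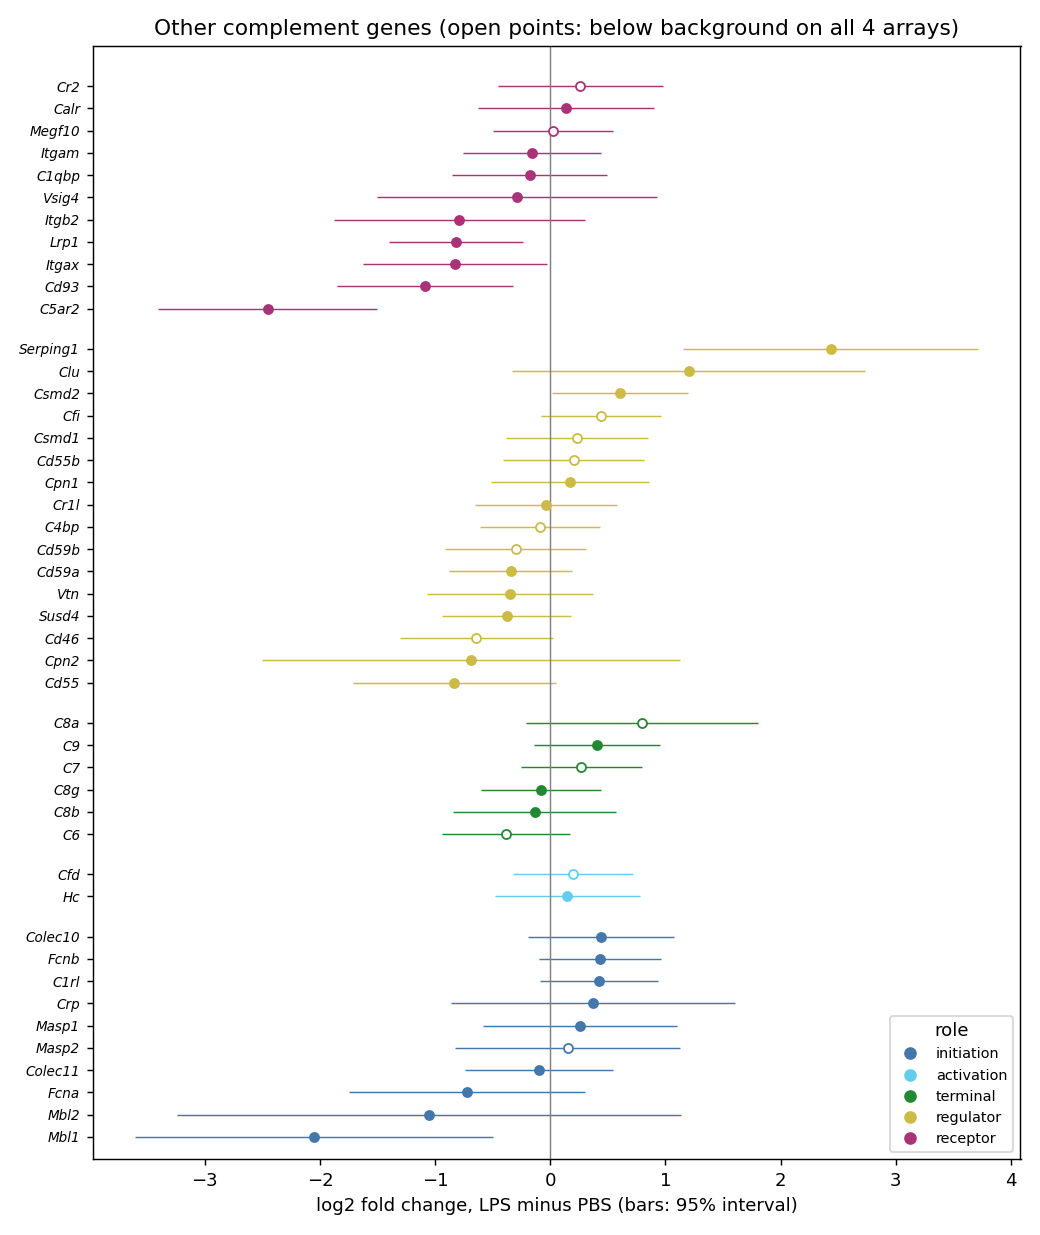
Log2 fold change of LPS against PBS (horizontal axis) with 95% intervals for 45 other complement genes grouped by role, with open points for genes below background on all 4 arrays. *C5ar2* (fitted value −2.46) is the only one past the test; *Serping1* (2.43) and *Mbl1* (−2.05) did not pass.

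The genes most like *Cfb*, by the distance between log2 signals centred on each gene's mean over the 4 arrays, were *Irf7* (distance 1.16, log2 fold change 4.89), *Rasgrp1* (1.18, 5.25) and *Adora2a* (1.39, 4.30) among 14766 genes above background on at least 1 array. No gene lay within 0.5 of *Cfb*, whereas 1460 genes lay within 0.5 of *C1qa*, the nearest being *Cdk2ap2* (0.04), *Sars* (0.05) and *Zfp791* (0.05). A likeness over 4 arrays of 2 groups is a description of these arrays.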

How the data were processed

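The authors deposited a linear signal intensity per probe for 4 one-colour arrays, with its detection p-value and an unexplained code per spot. The signals were taken as background-subtracted, since LPS replicate 1 holds 60 values of 0 or less. A second deposited intensity table holds these values multiplied by a factor for each array (0.869 and 0.972 with PBS, 1.29 and 0.959 with LPS) and served as an alternative. The origin of the factors, the scanner and the image software are not stated in the sources. Of 26423 probes, 22815 had 1 symbol, 246 several and 3362 none; symbols were updated through the RefSeq gene table of GRCm38.p6 (1906 of 19962 updated), and the brightest probe stood for a gene. Quantile-normalized log2 signals were fitted in limma 3.58.1 under R 4.3.3 by lmFit and eBayes, with 2 residual and 3.11 prior degrees of freedom, so the number of arrays limits precision. The exact permutation test of 2 against 2 arrays cannot go below p = 0.333 and was not used. The fit was tested on simulated data. The genes, lists and tests were chosen with earlier results of these data known. By rule, the text names all 9 genes, every other complement gene past the test, a fixed few besides, and the 3 genes nearest in pattern to the largest rise and fall; *Ddx3y*, *Eif2s3y*, *Uty*, *Kdm5d*, *Xist*, *Lck*, *Retnla*, *Ccl5* and *Mbl1* were named after their values were seen. Alternatives covered scaling, background, filters, probe choice, the replicate block, the variance model, the t-test of the methods and leaving out each array with the normalization kept.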

Additional observations from a re-analysis of the deposited data

How the results depend on the processing

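Of the 9 genes, 8 kept their sign in all 18 other fits; *Cfp* turned, to 0.10 with 75th percentile scaling and 0.0289 with the second deposited table. Many of these fits were no check of the sign. Each of the 9 genes had 1 probe, so the filters and the choice of probe left its log2 fold change as it was. The replicate block, the variance model and the t-test also left it the same. Only the scalings, the background correction and leaving out an array altered the value. Where the groups did not overlap, leaving out an array could not turn the sign either. The 2 calls among the 9 genes fell to 1 with 75th percentile scaling (*C3* in place of *Cfb* and *C2*), to 1 with cyclic loess, without scaling, with every probe fitted separately and with a variance trend, and to 0 with the second deposited table and with the methods' t-test after adjustment. With the replicate block 1 was called, *C2*; same-numbered arrays deviated together (correlation 0.239 across genes), but with 2 numbers the labels do not say what they share. Fits on 3 arrays, which take the spread of the single array from the other group, gave 0 to 1 calls. For the other complement genes the count of 1 became 2 with a filter on dim probes, 2 with the dimmest probe, 0 and 5 with the t-test after and before adjustment, and 0 to 3 without an array. Genes past the test numbered 1104, of which 58.2% were higher, and 529 with 75th percentile scaling (75.2% higher), 432 without scaling, 438 with the second deposited table (74.7% higher), 0 and 3719 with the t-test after and before adjustment, and 111 to 1207 without an array (152 and 111 without the first and the second PBS array, 420 without the first LPS array). Without scaling, the median of all genes was −0.35. With 2 arrays a group, intervals were wide, and a change that missed the threshold may still be present.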

Other observations

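In 19 genes the PBS arrays differed by at least as much as in *Cfb*, and *Cfb* was the only one of these past the test. Of the 19, 3 were Y-linked. *Retnla*, which encodes a secreted protein of alternatively activated macrophages, was higher on the arrays numbered 1 in both groups, by 3.43 on the log2 scale with PBS and 3.36 with LPS, whereas the gap of *Cfb* was 2.93 with PBS and −0.12 with LPS.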
